A study of Mus musculus with 12 samples.

Results

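The 7 genes described here handle phosphate at the sites where bone mineral forms: *Alpl*, *Phospho1*, *Enpp1*, *Ank*, *Smpd3*, *Slc20a1* and *Slc20a2*. They were chosen by gene symbol from the 32288 genes and transgenes counted, and all 7 were present and passed the filter on low counts in every comparison. The series is bulk RNA-seq of mGFP+ cells sorted from the metaphysis of mouse femurs and tibias, the spongy region under the growth plate, after removal of CD45+ and TER119+ cells and gating on CD31-, CD45- and TER119- cells. Every group carried *Osx-CreERT2*, a tamoxifen-inducible Cre driven by the osteoblast gene *Osx* (*Sp7*), with the *mTmG* reporter, and every group received tamoxifen. Juvenile libraries (n = 4) came from mice 3 weeks of age and adult libraries (n = 4) from mice 8 weeks of age, each a pool of 2 male mice, and about 2 mm of bone below the growth plate was kept. The *c-Myc* libraries (n = 2) carried in addition *LSL-tTA* and *Col1a1::TetO–c-Myc*, so that Cre turned on *c-Myc*, and the *c-Myc* + *R172H* libraries (n = 2) also carried *Trp53-LSL-R172H*, a mutant p53 allele switched on by Cre. Both *c-Myc* groups were collected 7 days after tamoxifen. The labels give male and female mice for them, whereas the methods of the paper speak of males for RNA-seq, so their sex is not settled. Their titles give 3 weeks of age, whereas the dissection text gives 5-week-old mice and a kept length of 5 mm. Genotype, age at dissection, length of bone, possibly sex, and tamoxifen schedule therefore cannot be told apart between these groups and the controls. The same holds for doxycycline or tetracycline. The labels do not say how many mice entered a *c-Myc* library.

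Bone mineral is a calcium phosphate, and its formation depends on the balance between inorganic phosphate, which it needs, and inorganic pyrophosphate, which blocks crystal growth. In osteoblasts and in the matrix vesicles they bud off, *Enpp1* makes pyrophosphate from extracellular ATP, *Ank* passes pyrophosphate or its precursor ATP out of the cell, and tissue-nonspecific alkaline phosphatase, the product of *Alpl*, splits pyrophosphate into phosphate. Inside the vesicle, *Smpd3* frees phosphocholine from sphingomyelin and *Phospho1* releases phosphate from phosphocholine. *Slc20a1* (PiT-1) and *Slc20a2* (PiT-2) are sodium-dependent phosphate carriers of the cell membrane. Loss of *Alpl*, *Phospho1* or *Smpd3* impairs skeletal mineralization, and loss of *Enpp1* or *Ank* leads to mineral in soft tissue.

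Promoter sequence is shown for *Slc20a1*, the member whose expression rose in the *c-Myc* groups over juvenile libraries, and for *Alpl*, which fell. It is also shown for *Phospho1*, the only other of the 5 members with a matched window that held the motif CACGTG. *Phospho1* also fell in both *c-Myc* groups over juvenile libraries. The sequences are from RefSeq (GRCm38.p6), run 5′ to 3′ on the strand of the gene, and cover 250 bases before and 50 bases after an annotated start. Capitals mark CACGTG, the E-box that dimers of MYC and MAX are known to bind, which reads the same on both strands.
Slc20a1, chr2:129198523-129198822, + strand: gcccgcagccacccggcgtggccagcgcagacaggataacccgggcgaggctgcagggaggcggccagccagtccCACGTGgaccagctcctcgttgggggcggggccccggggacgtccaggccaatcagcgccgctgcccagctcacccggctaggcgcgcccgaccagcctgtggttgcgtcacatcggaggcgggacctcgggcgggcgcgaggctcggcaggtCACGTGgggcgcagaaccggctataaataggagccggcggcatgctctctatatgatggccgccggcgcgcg
Phospho1, chr11:95824250-95824549, + strand: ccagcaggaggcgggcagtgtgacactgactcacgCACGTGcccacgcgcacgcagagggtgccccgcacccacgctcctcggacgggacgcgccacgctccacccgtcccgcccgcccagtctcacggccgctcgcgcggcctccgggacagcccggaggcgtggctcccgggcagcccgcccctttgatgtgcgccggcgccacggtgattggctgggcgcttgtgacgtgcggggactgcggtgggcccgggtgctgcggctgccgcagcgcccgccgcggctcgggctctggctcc
Alpl, chr4:137796335-137796634, - strand: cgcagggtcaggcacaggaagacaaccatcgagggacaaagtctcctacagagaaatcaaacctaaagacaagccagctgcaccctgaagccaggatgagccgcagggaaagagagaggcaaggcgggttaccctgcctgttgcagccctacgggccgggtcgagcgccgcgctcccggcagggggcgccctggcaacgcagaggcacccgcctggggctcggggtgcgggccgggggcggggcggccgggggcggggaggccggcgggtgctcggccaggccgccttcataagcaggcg
Promoter windows were matched for 5 of the 7 members, with 7 windows in all; *Smpd3* and *Slc20a2* were not searched. The first *Slc20a1* window held CACGTG at 2 places, with the first base at -175 and -22 from the annotated start. The *Phospho1* window held it at 1 place, at -215. It did not occur in the windows of *Alpl*, *Enpp1* or *Ank*, nor in the second *Slc20a1* window. Of 32851 mouse promoter windows of the same length, 7.15% held at least 1 CACGTG. The GC box GGGCGG, searched on both strands, occurred in at least 1 window of each of the 5 matched members and in 35.7% of all windows. TGTGGT, a core motif of RUNX factors, was found in the *Enpp1* window and the first *Slc20a1* window and in 16.8% of all windows, and TGGGTGGTC, a GLI motif, was found in none of the 7 windows and in 0.253% of all windows. TATAAA occurred in the first *Slc20a1* window and the second *Alpl* window and in 13.6% of all windows. No match overlapped a CACGTG. A match describes the letters only, since binding was not measured here.

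The libraries held 9066154 to 15684412 counts. *Col1a1*, *Col1a2* and *Gm26917* together took 57.1% to 65.3% of the counts in juvenile libraries, 42.4% to 56.1% in adult libraries, 41.8% to 46.1% in *c-Myc* libraries and 35.2% to 37.6% in *c-Myc* + *R172H* libraries. Levels are therefore given as CPM, counts scaled to a common library size, after TMM scaling, which sets the bulk of genes equal between libraries, and a fold change on this scale is relative to the bulk of genes. When library totals replaced the TMM factors, the median log2 fold change of all genes tested moved from 0.037 to 0.87 for *c-Myc* over juvenile, from 0.076 to 1.12 for *c-Myc* + *R172H* over juvenile, from -0.0028 to 0.21 for *c-Myc* + *R172H* over *c-Myc* and from 0.00093 to -0.24 for juvenile over adult, and from 0.0089 to 0.57 and from 0.026 to 0.82 for the same *c-Myc* groups over adult. The share of called genes that were higher rose with library totals from 53.2% to 85.9% for *c-Myc* over juvenile, from 53.6% to 86.8% for *c-Myc* + *R172H* over juvenile, and from 53.3% to 77.1% and from 51% to 79.7% for these groups over adult. It dropped from 36.8% to 6.26% for juvenile over adult.

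The osteoblast identity of the sort was checked on 6 markers. All 6 had counts in every group. *Sp7* lay between 122 and 242 CPM and *Runx2* between 140 and 247 CPM over the 12 libraries, while the matrix genes ranged more widely: *Ibsp*, bone sialoprotein, was at 1877 to 3390 CPM in juvenile and 447 to 469 CPM in *c-Myc* + *R172H* libraries. In the same groups *Bglap* was at 243 to 464 and 8.80 to 12.7 CPM, and *Col1a1* at 382200 to 557700 and 36140 to 38050 CPM. All 6 were called lower in *c-Myc* over juvenile libraries, beside 25% of all genes tested. Endothelial and muscle markers summed to at most 1.27 and 3.21 CPM in any library, and 11 haematopoietic markers to at most 6.97 CPM. Of 7 osteoclast markers, *Calcr*, *Dcstamp* and *Ocstamp* were at 0 in every library, and *Ctsk*, at 124 to 146 CPM in juvenile and 88.3 to 111 CPM in adult libraries, made up most of the sum. *Acp5* was at 2.32 to 7.26 CPM over all libraries. Cartilage genes were present: 12 chondrocyte markers summed to 17920 to 34590 CPM in juvenile, 42920 to 137100 CPM in adult, 1909 to 2128 CPM in *c-Myc* and 896 to 1064 CPM in *c-Myc* + *R172H* libraries, and all 12 had counts in every group. Much of these sums came from 1 gene. *Col2a1* was at 6940 to 19290 CPM in juvenile and 27460 to 100400 CPM in adult libraries. *Col11a2* was at 1343 to 1795 CPM in *c-Myc* and 722 to 900 CPM in *c-Myc* + *R172H* libraries. In bulk samples, fewer cells of a type and less RNA per cell cannot be told apart.

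Within the juvenile libraries, the members spanned a wide range of levels. Per kilobase of exon, *Smpd3* had the highest level with 292 ± 27.7 CPM per kb (SD, n = 4) and *Alpl* had 277 ± 11.2 CPM per kb, a difference within the spread of the libraries. *Ank* followed with 22.7 ± 1.06 CPM per kb, *Slc20a2* with 7.93 ± 2.18, *Enpp1* with 3.68 ± 0.732 and *Slc20a1* with 2.03 ± 0.200 CPM per kb. The place of *Phospho1* in this order depends on the length used, because most of its exons are shared with another gene.

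*Phospho1* (ENSMUSG00000050860, chromosome 11 from 95824499 to 95832140 on the + strand of GRCm38, the build called mm10) has 2029 exonic bases in GENCODE vM21. Of these, 1818 also belong to exons of a transcript of *Zfp652* on the same strand, which leaves 211 bases, its first exon, to *Phospho1* alone. *Abi3* covers 1708 of the exonic bases on the opposite strand. A read in a shared exon is commonly left out by a counter that requires 1 gene per read, and the counting mode and strand setting were not given in the sources used here. *Phospho1* had 85 to 223 counts per library. Its juvenile level was 9.67 ± 1.52 CPM per kb (SD, n = 4) over all its exons and 93.0 ± 14.6 CPM per kb over the unshared exon. Values of *Phospho1* between libraries are given below, and its level per length is not ranked against that of other genes.

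**Figure D1:**
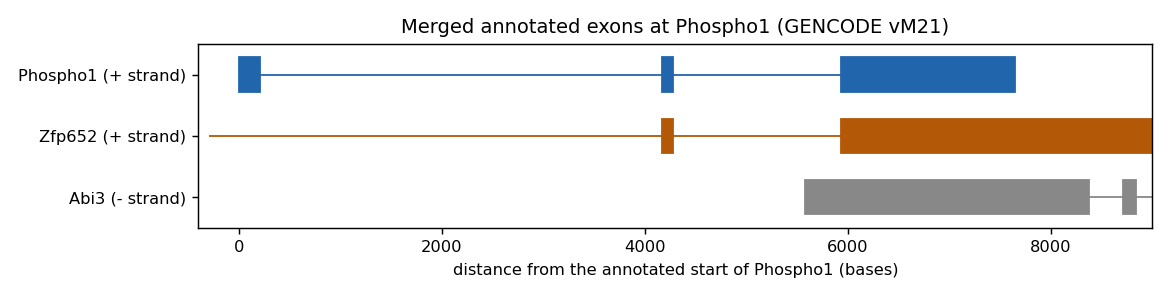
Merged annotated exons of *Phospho1*, *Zfp652* and *Abi3*, with the distance from the start of *Phospho1* in bases on the x axis and 1 gene per row; boxes are exons and lines introns. Only the first *Phospho1* exon, 211 bases long, lies outside the *Zfp652* exons.

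*Alpl* (ENSMUSG00000028766, chromosome 4 from 137741733 to 137796384, - strand) shares no exonic base with another annotated gene. Its expression in juvenile libraries 1 to 4 was 1095, 1170, 1135 and 1067 CPM. In adult libraries 1 to 4 it was 1114, 1359, 1649 and 1010 CPM. The *c-Myc* libraries had 484 and 497 CPM and the *c-Myc* + *R172H* libraries 455 and 452 CPM. All 4 libraries of the *c-Myc* groups lay below all 8 control libraries, and the ages overlapped.

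The level of *Alpl* fell in *c-Myc* over juvenile libraries with a log2 fold change of -1.25 (SE 0.080; quasi-likelihood F test of edgeR, adjusted p = 1.03e-07), a 2.38-fold lower level. In *c-Myc* + *R172H* over juvenile libraries it was -1.34 (SE 0.080, edgeR adjusted p = 4.17e-08). It was also lower in both groups than in adult libraries, with log2 fold changes of -1.43 (SE 0.16, edgeR adjusted p = 1.26e-06) and -1.55 (SE 0.17, 4.00e-07). With library totals, the log2 fold change over juvenile was smaller, -0.42 in *c-Myc* libraries, where it was still called, and -0.30 in *c-Myc* + *R172H* libraries, where it was not called with an edgeR adjusted p of 0.0562. Juvenile over adult, *Alpl* gave -0.21 (SE 0.15, edgeR adjusted p = 0.497), with a 95% interval from -0.50 to 0.085.

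*Enpp1* (ENSMUSG00000037370, chromosome 10 from 24637914 to 24712159, - strand) is the main source of pyrophosphate outside the cell. Its expression in juvenile libraries 1 to 4 was 38.5, 46.5, 38.0 and 28.2 CPM. Adult libraries 1 to 4 had 90.2, 36.1, 45.6 and 65.1 CPM. Libraries with *c-Myc* alone had 20.2 and 18.8 CPM and the *c-Myc* + *R172H* libraries 18.0 and 27.9 CPM. The adult group was the most variable, and both *c-Myc* groups lay below every juvenile library, by a narrow margin for 1 *c-Myc* + *R172H* library.

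The level of *Enpp1* fell in *c-Myc* over juvenile libraries with a log2 fold change of -1.02 (SE 0.22, edgeR adjusted p = 0.00166), and in *c-Myc* + *R172H* over juvenile libraries with -0.77 (SE 0.21, edgeR adjusted p = 0.00866). The second call was lost without *c-Myc* + *R172H* replicate 1, which gave -0.50 with an edgeR adjusted p of 0.123. With library totals, neither was called, and the second turned to 0.26. Over adult libraries, the log2 fold changes were -1.65 (SE 0.32, edgeR adjusted p = 0.000651) and -1.42 (SE 0.32, 0.00165), and the second was not called with library totals (-0.64, edgeR adjusted p = 0.125). Juvenile over adult, *Enpp1* gave -0.66 (SE 0.26, edgeR adjusted p = 0.175), and without adult replicate 2 it gave -0.83 (adjusted p = 0.0221). The summed chondrocyte markers moved with *Enpp1* among the adult libraries: replicate 1, with 90.2 CPM of *Enpp1*, had 137100 CPM of them, replicate 4 had 83940, replicate 3 had 64620 and replicate 2, with 36.1 CPM of *Enpp1*, had 42920 CPM. The part of cartilage cells in the *Enpp1* levels was not tested.

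*Ank* (ENSMUSG00000022265, chromosome 15 from 27466677 to 27594909, + strand) exports pyrophosphate or ATP. In juvenile libraries 1 to 4 it had 77.6, 83.7, 86.5 and 80.6 CPM, and in adult libraries 1 to 4 it had 77.8, 77.4, 64.8 and 80.3 CPM. In *c-Myc* libraries it was at 38.6 and 35.4 CPM and in *c-Myc* + *R172H* libraries at 32.0 and 44.5 CPM. The ages overlapped and the *c-Myc* groups were both well below them.

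The level of *Ank* fell in *c-Myc* over juvenile libraries with a log2 fold change of -1.21 (SE 0.14, edgeR adjusted p = 1.27e-05), a 2.32-fold lower level. It was -1.14 (SE 0.14, edgeR adjusted p = 1.73e-05) in *c-Myc* + *R172H* over juvenile libraries. Neither was called with library totals, with log2 fold changes of -0.37 and -0.10. Over adult libraries, it was -1.06 (SE 0.15, edgeR adjusted p = 9.94e-06) and -1.03 (SE 0.15, 1.20e-05), and the second was not called with library totals (-0.23, edgeR adjusted p = 0.281). Juvenile over adult, the 95% interval of its log2 fold change ran from -0.11 to 0.35 (0.12, SE 0.11, edgeR adjusted p = 0.636), and the sign turned with library totals (-0.13).

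*Phospho1*, the phosphatase of phosphocholine and phosphoethanolamine, had 18.5, 16.2, 23.4 and 20.5 CPM in juvenile libraries 1 to 4. Adult libraries 1 to 4 had 8.53, 21.1, 11.8 and 10.9 CPM. The *c-Myc* libraries had 8.26 and 8.17 CPM and the *c-Myc* + *R172H* libraries 8.67 and 11.3 CPM. Adult replicate 2 lay among the juvenile libraries, and the other 3 adult libraries were close to the *c-Myc* groups.

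The level of *Phospho1* fell in *c-Myc* over juvenile libraries with a log2 fold change of -1.32 (SE 0.22, edgeR adjusted p = 0.000257), and in *c-Myc* + *R172H* over juvenile libraries with -1.01 (SE 0.21, edgeR adjusted p = 0.00143). With library totals neither was called, and the second was 0.040. Over adult libraries it was the one member not called, at -0.71 (SE 0.30, edgeR adjusted p = 0.0605) and -0.43 (SE 0.30, 0.234), and DESeq2 called the first of these. Juvenile over adult, it gave 0.58 (SE 0.25, edgeR adjusted p = 0.208), with a 95% interval from 0.086 to 1.08. Without adult replicate 2 this was 0.92 (edgeR adjusted p = 0.0192), so 1 library set this call. That library also had the lowest chondrocyte and the highest osteoblast marker sum of the adult group, 42920 and 607700 CPM, and the part of either in the *Phospho1* level was not tested.

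*Smpd3* (ENSMUSG00000031906, chromosome 8 from 106252548 to 106337988, - strand) encodes neutral sphingomyelinase 2 and had the most CPM of the members in the juvenile libraries. It had 1499, 1641, 1631 and 1331 CPM in juvenile libraries 1 to 4 and 1621, 1545, 1564 and 1229 CPM in adult libraries 1 to 4. In *c-Myc* libraries it was at 692 and 817 CPM and in *c-Myc* + *R172H* libraries at 555 and 583 CPM. The ages overlapped, both *c-Myc* groups were lower, and the *c-Myc* + *R172H* libraries were below the *c-Myc* libraries. *Prmt7* covers 247 of its 5232 exonic bases on the opposite strand.

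The level of *Smpd3* fell in *c-Myc* over juvenile libraries with a log2 fold change of -1.08 (SE 0.11, edgeR adjusted p = 4.16e-06), and in *c-Myc* + *R172H* over juvenile libraries with -1.47 (SE 0.11, edgeR adjusted p = 2.97e-07), a 2.76-fold lower level. With library totals the first was not called, at -0.25, and the second was called, at -0.43. Over adult libraries it was -1.02 (SE 0.14, edgeR adjusted p = 1.07e-05) and -1.44 (SE 0.15, 2.12e-07). Juvenile over adult, the 95% interval of its log2 fold change ran from -0.24 to 0.29 (0.027, SE 0.13, edgeR adjusted p = 0.951), and the sign turned with library totals (-0.20) and in 3 of the 8 fits that left out a library.

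*Slc20a1* (ENSMUSG00000027397, chromosome 2 from 129198764 to 129211616, + strand), the PiT-1 carrier, moved the other way. It had 9.95, 12.6, 11.1 and 11.8 CPM in juvenile libraries 1 to 4. Adult libraries 1 to 4 had 18.6, 13.4, 19.2 and 19.9 CPM. Libraries with *c-Myc* alone had 32.1 and 36.3 CPM and the *c-Myc* + *R172H* libraries 28.9 and 31.1 CPM. Every juvenile library was below every adult library, and every adult library was below the 4 libraries of the *c-Myc* groups. These levels rest on 81 to 123 counts per juvenile library, 120 to 189 per adult library and 611 to 689 per library of the *c-Myc* groups.

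The level of *Slc20a1* rose in *c-Myc* over juvenile libraries with a log2 fold change of 1.53 (SE 0.15, edgeR adjusted p = 3.72e-06), a 2.89-fold higher level, and in *c-Myc* + *R172H* over juvenile libraries with 1.36 (SE 0.15, edgeR adjusted p = 9.22e-06), a 2.56-fold higher level. Both were called in all 18 alternative fits, where they ranged from 1.43 to 2.36 and from 1.27 to 2.40. Over adult libraries it was 0.90 (SE 0.18, edgeR adjusted p = 0.000514) and 0.70 (SE 0.19, 0.00381), and the second call was lost without *c-Myc* + *R172H* replicate 2 (edgeR adjusted p = 0.0505). Juvenile over adult, it gave -0.65 (SE 0.20), with a 95% interval from -1.05 to -0.26, and missed the threshold with an edgeR adjusted p of 0.0698. It passed with library totals (0.0238), with all 12 libraries in the fit (0.0222) and without adult replicate 2 (0.0323). On the opposite strand, 9830144P21Rik covers 452 of the 5580 exonic bases of *Slc20a1* and had 2 counts in all libraries together.

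*Slc20a2* (ENSMUSG00000037656, chromosome 8 from 22476788 to 22569612, + strand), the PiT-2 carrier, had 40.8, 41.9, 45.1 and 69.4 CPM in juvenile libraries 1 to 4. Adult libraries 1 to 4 had 64.2, 86.1, 76.8 and 62.5 CPM. The *c-Myc* libraries had 31.0 and 26.2 CPM and the *c-Myc* + *R172H* libraries 19.9 and 20.1 CPM. Juvenile replicate 4 stood apart from the other 3 and lay within the adult range, and the *c-Myc* groups were below every control library and did not overlap each other.

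The level of *Slc20a2* fell in *c-Myc* over juvenile libraries with a log2 fold change of -0.85 (SE 0.20, edgeR adjusted p = 0.00355), and in *c-Myc* + *R172H* over juvenile libraries with -1.34 (SE 0.21, edgeR adjusted p = 0.000135). The first call was lost without *c-Myc* replicate 2 (-0.74, edgeR adjusted p = 0.0548). With library totals neither was called, and the first was 0.011. Over adult libraries it gave -1.38 (SE 0.21, edgeR adjusted p = 2.45e-05) and -1.91 (SE 0.21, 7.36e-07), the latter a 3.75-fold lower level. Juvenile over adult, it gave -0.56 (SE 0.17, edgeR adjusted p = 0.0671), with a 95% interval from -0.90 to -0.22. It was called without juvenile replicate 4 (-0.77, adjusted p = 0.0135).

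**Figure D2:**
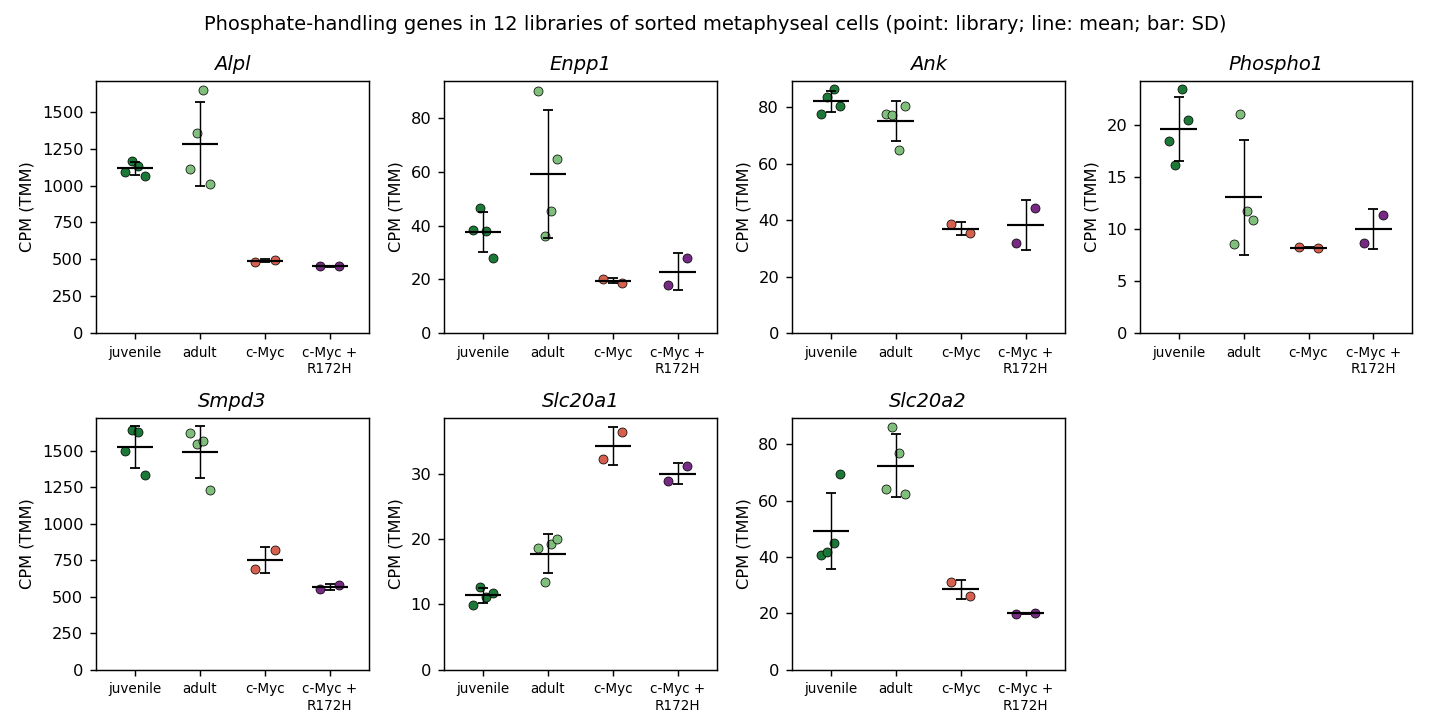
Normalized expression of the 7 genes in CPM after TMM scaling on the y axis, by group on the x axis; each point is a library, the line the mean and the bar the SD (n = 4 for juvenile and adult, n = 2 for the *c-Myc* groups). *Slc20a1* is higher in the *c-Myc* groups, at 28.9 to 36.3 CPM, and the other 6 genes are lower in them than in the juvenile group.

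Taking the members as a group, in *c-Myc* over juvenile libraries all 7 were called at an adjusted p below 0.05 by edgeR's quasi-likelihood F test, *Slc20a1* higher and 6 lower. Among all genes tested, 53.4% were called in this comparison, 28.4% higher and 25% lower. In *c-Myc* + *R172H* over juvenile libraries the same 7 were called in the same directions, against 56.7% of all genes, 30.4% higher and 26.3% lower. These comparisons share the 4 juvenile libraries. The median log2 fold change of the members was -1.08 and -1.14, beside 0.037 and 0.076 for all genes. With library totals, only *Slc20a1* (higher) and *Alpl* (lower) were called in the first comparison and only *Slc20a1* (higher) and *Smpd3* (lower) in the second. Library totals move all genes by about the same amount, so the members' places relative to the median of all genes are fixed by construction and give no second support. The share of the library taken by the other 5 lower members was not shown to fall in either comparison.

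Over adult libraries, 6 of the 7 members were called for *c-Myc*, 1 higher and 5 lower, beside 50.1% of all genes, 26.7% higher and 23.4% lower. For *c-Myc* + *R172H* it was likewise 1 higher and 5 lower, beside 53% of all genes, 27.1% higher and 26% lower. *Phospho1* was the member not called in both. With library totals these counts were 6 and 4 members, and *Enpp1* and *Ank* were the calls lost for *c-Myc* + *R172H*.

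In juvenile over adult libraries, edgeR called 0 of the 7 members, beside 5.12% of all genes. DESeq2 also called 0. Without adjustment, the edgeR p was 0.0046 for *Slc20a2*, 0.0050 for *Slc20a1* and 0.026 for *Enpp1*, all lower in juvenile libraries. It was 0.034 for *Phospho1*, which was higher. Of the members, only *Slc20a1* had groups that were separate in every library after TMM scaling. With library totals *Alpl*, *Slc20a1* and *Slc20a2* had separate groups, each lower in juvenile libraries. The shares of all genes with such p-values or with separate groups were not counted, so these are given as values only. In the same comparison the summed chondrocyte markers did not overlap, at 17920 to 34590 CPM in juvenile and 42920 to 137100 CPM in adult libraries. Of the 12 markers, 1 was called, *Col2a1*, lower in juvenile libraries and a large part of the sum. The part of these markers in the members' levels was not tested.

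In *c-Myc* + *R172H* over *c-Myc* libraries, edgeR called 0 of the 7 members, beside 0.469% of all genes. The lowest edgeR adjusted p was 0.366, for *Smpd3* with a log2 fold change of -0.39 (SE 0.12), and *Slc20a2* had -0.50 (SE 0.23). DESeq2 called *Smpd3* alone, with an adjusted p of 0.0369. The 95% interval of the log2 fold change was narrowest for *Alpl*, from -0.26 to 0.079, and widest for *Enpp1*, from -0.22 to 0.73.

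**Figure D3:**
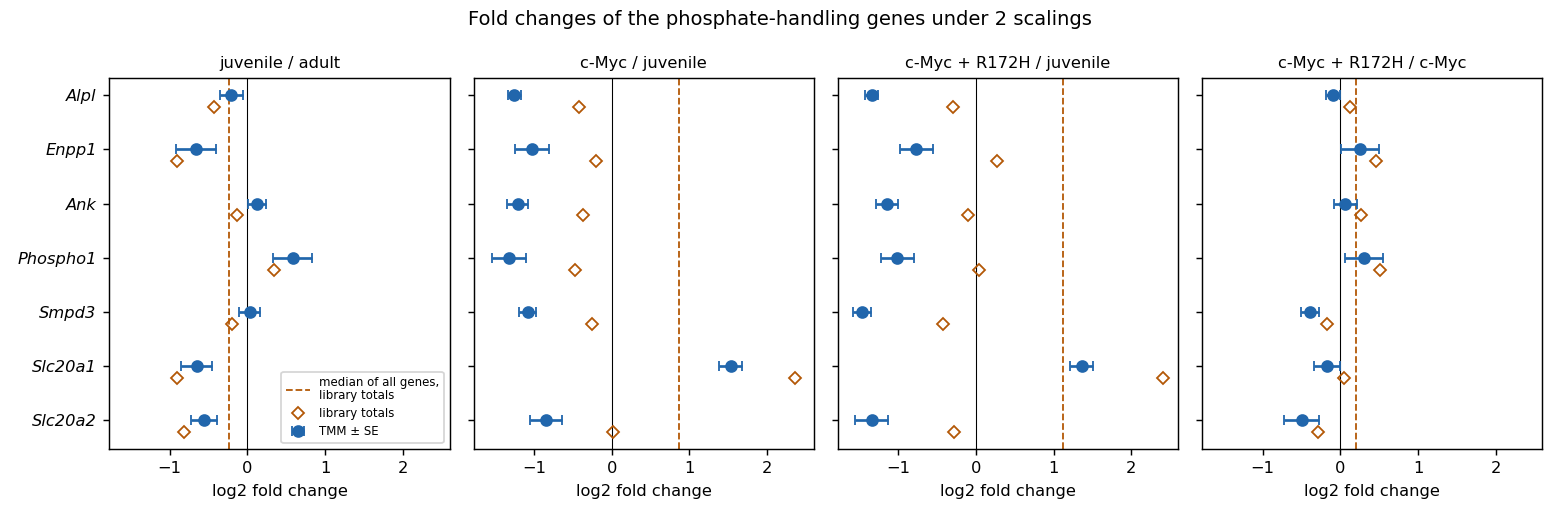
Log2 fold changes of the 7 genes (x axis) in 4 comparisons, with filled circles for TMM scaling and their SE, open diamonds for library totals, and a dashed line at the median of all genes under library totals. Over juvenile libraries, *Slc20a1* lies to the right and the other 6 genes to the left of that median in both *c-Myc* groups.

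Ratios of counts between members of a library do not depend on how the library is scaled. The *Slc20a1* to *Slc20a2* ratio was 0.244, 0.301, 0.246 and 0.169 in juvenile libraries 1 to 4 and 0.290, 0.155, 0.250 and 0.319 in adult libraries 1 to 4. It was 1.04 and 1.38 in the *c-Myc* libraries and 1.45 and 1.55 in the *c-Myc* + *R172H* libraries. PiT-1 counts were thus below PiT-2 counts in all 8 control libraries and above them in the 4 libraries of the *c-Myc* groups. Per kilobase of exon, the *c-Myc* libraries had 6.14 ± 0.527 CPM per kb of *Slc20a1* and 4.60 ± 0.540 of *Slc20a2* (SD, n = 2). The juvenile libraries had 2.03 ± 0.200 and 7.93 ± 2.18 CPM per kb (SD, n = 4).

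The *Alpl* to *Enpp1* ratio sets the gene that removes pyrophosphate against one that makes it. It was 30.3 ± 5.41 in juvenile (SD, n = 4), 25.4 ± 13.3 in adult (n = 4), 25.2 ± 1.69 in *c-Myc* (n = 2) and 20.8 ± 6.43 in *c-Myc* + *R172H* libraries (n = 2). In the adult group it was 12.3 and 15.5 in replicates 1 and 4 and 37.7 and 36.1 in replicates 2 and 3, and the ranges of juvenile, adult and both *c-Myc* groups overlapped. The *Alpl* to *Ank* ratio was 13.6 ± 0.502, 17.5 ± 5.70, 13.3 ± 1.05 and 12.2 ± 2.87 in the same order and also overlapped between groups. *Alpl*, *Enpp1* and *Ank* thus fell by amounts whose difference was within the spread of the libraries. The *Phospho1* to *Smpd3* ratio was 0.0130 ± 0.00243 in juvenile, 0.00882 ± 0.00354 in adult, 0.0110 ± 0.00137 in *c-Myc* and 0.0176 ± 0.00271 in *c-Myc* + *R172H* libraries. Both *c-Myc* + *R172H* libraries, at 0.0156 and 0.0195, were above the other 10 libraries. The lower of these values was close to the 0.0154 of juvenile replicate 4, from 185 and 167 *Phospho1* counts. This ratio was not tested, and its size rests on *Phospho1* counts that may come from the first exon alone.

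**Figure D4:**
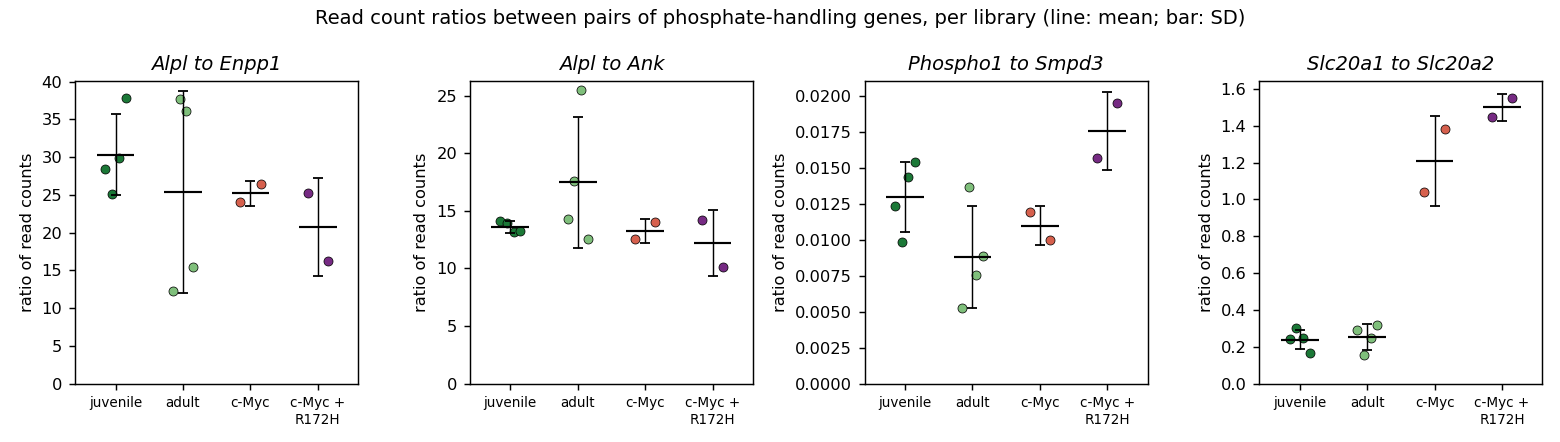
Ratio of read counts between 2 members (y axis) in each library, by group; the line is the mean and the bar the SD. The *Slc20a1* to *Slc20a2* ratio is at most 0.319 in control libraries and at least 1.04 in libraries of the *c-Myc* groups, and the *Alpl* ratios overlap between groups.

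In order of level, the adult and juvenile groups came first for 6 members, and edgeR called no difference between these neighbours in any of them. Below them the *c-Myc* groups followed, and the step from the controls was called for *Alpl*, *Enpp1*, *Ank*, *Smpd3* and *Slc20a2* and not for *Phospho1*, where the step from adult to *c-Myc* + *R172H* gave an edgeR adjusted p of 0.234. For *Slc20a1* the order was *c-Myc*, *c-Myc* + *R172H*, adult and juvenile, and only the step from *c-Myc* + *R172H* to adult was called.

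Other genes of pyrophosphate and phosphate metabolism were examined in 8 lists. Their counts stand beside the shares of all genes tested. In *c-Myc* over juvenile libraries 28.4% were called higher and 25% lower, and in *c-Myc* + *R172H* over juvenile libraries 30.4% and 26.3%. With library totals, 6803 of 12588 genes were called higher and 1115 lower in the first comparison, and 7668 and 1169 in the second. For pyrophosphate and nucleotide turnover, 9 of 11 genes were tested, with 2 higher and 2 lower in *c-Myc* over juvenile libraries. *Ppa2*, the mitochondrial pyrophosphatase, was higher, with 11.8 ± 1.17 CPM (SD, n = 2) against 4.79 ± 1.10 CPM (SD, n = 4) and a log2 fold change of 1.23 (SE 0.25, edgeR adjusted p = 0.00114). *Ppa1*, the cytosolic one, was lower at -0.80 (SE 0.24, edgeR adjusted p = 0.0157), and 0.0065 with library totals. *Slc29a1*, a nucleoside transporter, was higher at 0.35 (SE 0.11, edgeR adjusted p = 0.0167). It was also lower in juvenile than in adult libraries (-0.78, SE 0.14, edgeR adjusted p = 0.00539). In *c-Myc* + *R172H* over juvenile libraries 3 of the 9 were higher and 1 lower.

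Beyond *Slc20a1* and *Slc20a2*, 3 of 6 further phosphate transporters were tested. All 3 were called in both *c-Myc* comparisons with juvenile libraries, beside 53.4% and 56.7% of all genes. *Slc25a3*, the mitochondrial phosphate carrier, rose from 123 ± 11.6 CPM (SD, n = 4) to 241 ± 6.12 CPM in *c-Myc* libraries (SD, n = 2), a log2 fold change of 0.90 (SE 0.095, edgeR adjusted p = 6.47e-06). *Xpr1*, the phosphate exporter, fell from 37.7 ± 3.22 to 21.0 ± 0.914 CPM (-0.91, SE 0.14, edgeR adjusted p = 0.000136). With library totals it gave -0.075 and was not called (edgeR adjusted p = 0.721). *Slc37a3* fell at -1.57 (SE 0.12, edgeR adjusted p = 4.56e-07). In *c-Myc* + *R172H* over juvenile libraries they gave 0.94, -0.97 and -2.12 on the log2 scale, and *Xpr1* turned to 0.079 with library totals. None of the 3 was called between the ages.

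All 11 phosphocholine supply genes were tested, and 5 were lower and 0 higher in *c-Myc* over juvenile libraries. Of all genes tested, 25% were lower and 28.4% higher. *Sgms2*, a sphingomyelin synthase that makes the substrate of *Smpd3*, fell from 1378 ± 92.4 to 523 ± 9.18 CPM (log2 fold change -1.46, SE 0.087, edgeR adjusted p = 6.09e-08). *Sgms1* fell at -1.76 (SE 0.31, edgeR adjusted p = 0.000453). In *c-Myc* + *R172H* over juvenile libraries 6 were lower, *Gdpd2*, a glycerophosphodiesterase, by the most (-1.92, SE 0.29, edgeR adjusted p = 9.80e-05). *Gdpd2* was also lower in juvenile than in adult libraries (-1.18, SE 0.19, edgeR adjusted p = 0.00166). With library totals, 5 genes of this list were called higher and 2 lower in *c-Myc* over juvenile libraries, and the list median, -0.38 with TMM, was 0.46, or -0.42 from the median of all genes.

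Alkaline phosphatase is held to the membrane by a GPI anchor and needs zinc, which secretory pathway transporters supply. Of 26 tested GPI anchor assembly genes, 6 were called higher and 4 lower in *c-Myc* over juvenile libraries, beside 28.4% and 25% of all genes. Their median log2 fold change was 0.15. With library totals 17 were higher and 0 lower, and the median was 0.99, or 0.12 from the median of all genes. Of 5 zinc transporters, 0 were higher and 4 lower with TMM, and 0 higher and 1 lower with library totals. *Slc39a13* fell from 99.3 ± 9.37 to 27.9 ± 3.44 CPM (-1.89, SE 0.14, edgeR adjusted p = 2.58e-07) and to 19.2 ± 1.56 CPM in *c-Myc* + *R172H* libraries (-2.41, SE 0.14, edgeR adjusted p = 3.52e-08). *Slc30a7* fell at -0.84 (SE 0.12, edgeR adjusted p = 9.08e-05), and gave -0.0077 with library totals, where it was not called.

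Of 13 annexin and ion handling genes of matrix vesicles, *c-Myc* over juvenile libraries called 1 higher and 9 lower, and 6 higher and 3 lower with library totals. *Slc8a3*, a sodium-calcium exchanger, fell from 237 ± 26.8 to 72.7 ± 12.1 CPM (-1.77, SE 0.13, edgeR adjusted p = 3.79e-07). *Atp2b4*, a calcium pump, rose from 18.0 ± 1.57 to 51.2 ± 2.60 CPM (1.44, SE 0.12, edgeR adjusted p = 1.11e-06).

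All 8 tested genes of systemic phosphate control were lower in both *c-Myc* groups than in juvenile libraries, and with library totals 5 and 7 of them were lower and 0 higher. *Phex* fell from 232 ± 67.0 to 63.4 ± 7.18 CPM (-1.93, SE 0.24, edgeR adjusted p = 3.61e-05) and *Dmp1* from 314 ± 84.6 to 86.7 ± 25.2 CPM (-1.92, SE 0.25, edgeR adjusted p = 5.21e-05). Both are osteocyte genes, and 6 osteocyte markers that include them summed to 373 to 720 CPM in juvenile, 290 to 358 in adult, 143 to 168 in *c-Myc* and 78.4 to 98.3 CPM in *c-Myc* + *R172H* libraries. Between the ages, *Dmp1* (1.04, SE 0.21, edgeR adjusted p = 0.0122) and *Vdr*, the vitamin D receptor (0.56, SE 0.15, edgeR adjusted p = 0.0452), were higher in juvenile libraries. With library totals *Dmp1* was still called (0.74, edgeR adjusted p = 0.0318) and *Vdr* was not (0.34, edgeR adjusted p = 0.223).

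Of 6 tested mineral-binding genes, *c-Myc* over juvenile libraries called 1 higher and 5 lower with both scalings. *Bglap*, osteocalcin, fell from 380 ± 95.6 to 40.7 ± 17.7 CPM (-3.29, SE 0.36, edgeR adjusted p = 5.91e-05). *Mgp*, an inhibitor of calcification that cartilage cells also make, fell from 164 ± 119 to 4.10 ± 1.04 CPM (-5.39, SE 0.96, edgeR adjusted p = 0.00437). *Fetub* was higher, at 10.2 ± 1.90 against 1.63 ± 1.16 CPM (2.64, SE 0.52, edgeR adjusted p = 0.000914). *Spp1*, osteopontin, was higher in juvenile than in adult libraries, with 3636 ± 854 against 1544 ± 130 CPM (1.23, SE 0.16, edgeR adjusted p = 0.000662). *Sparc* was the one gene of the 8 lists called between the *c-Myc* groups, lower with *R172H* (-0.87, SE 0.14, edgeR adjusted p = 0.0204). With library totals *Sparc* gave -0.65 and was not called (edgeR adjusted p = 0.0678).

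**Figure D5:**
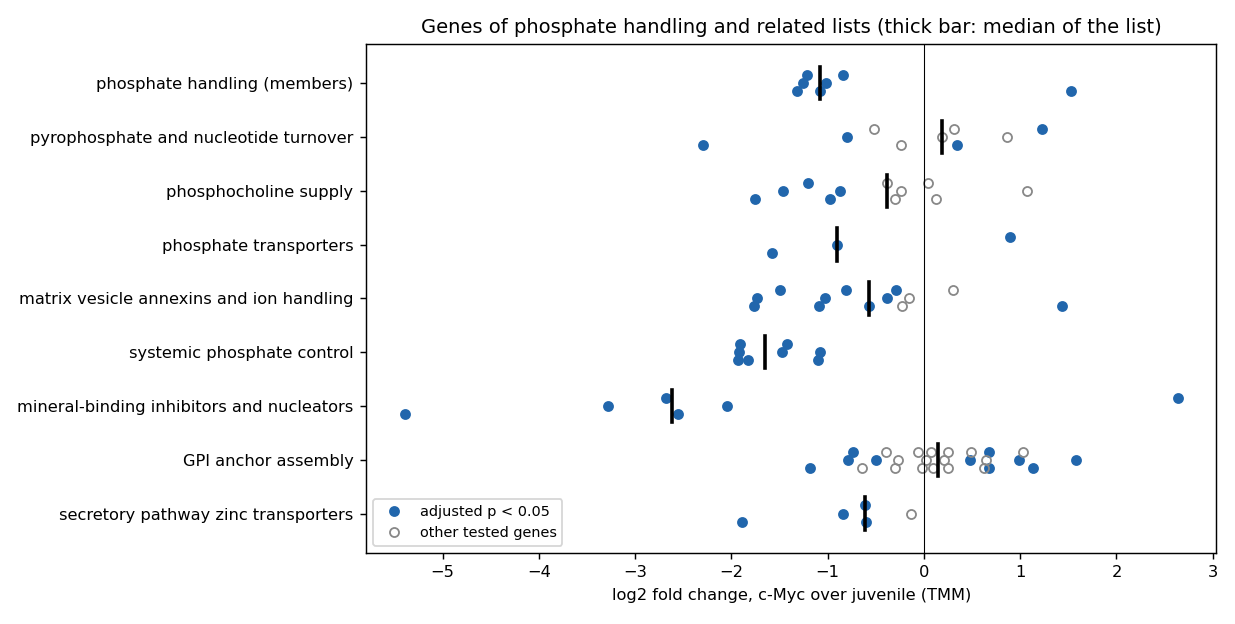
Log2 fold changes of *c-Myc* over juvenile libraries with TMM scaling (x axis) for the members and the 8 lists (rows); each point is a gene, filled where the edgeR adjusted p was below 0.05, and the thick bar is the list median. The members' median lies at -1.08 and *Slc20a1*, at 1.53, is the single member to the right of 0.

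The marker sums moved with these lower levels. The 6 osteoblast markers summed to 560400 to 823600 CPM in juvenile, 336800 to 607700 in adult, 100800 to 133100 in *c-Myc* and 56850 to 58840 CPM in *c-Myc* + *R172H* libraries. Most of this sum is *Col1a1* and *Col1a2*. *Sp7* and *Runx2* gave smaller log2 fold changes in *c-Myc* over juvenile libraries, -0.81 and -0.71, against -2.68 for *Col1a1*. Over adult libraries *Runx2* was not called for *c-Myc* (-0.29, edgeR adjusted p = 0.134). *Col10a1* is a gene of hypertrophic chondrocytes, a cell type that also expresses several of the members. *Ihh* is placed by the paper mainly in prehypertrophic chondrocytes. The 2 genes summed to 417 to 1811 CPM in juvenile libraries, 558 to 795 in adult, 9.01 to 26.7 in *c-Myc* and 4.88 to 10.4 CPM in *c-Myc* + *R172H* libraries. *Col10a1* made up most of this sum in the controls, at 413 to 1772 CPM in juvenile and 545 to 741 CPM in adult libraries. The 7 osteoclast markers summed to 128 to 150 CPM in juvenile, 92.2 to 114 in adult, 18.4 to 23.9 in *c-Myc* and 20.0 to 21.8 CPM in *c-Myc* + *R172H* libraries. The 6 marrow stromal markers summed to 323 to 409, 415 to 643, 126 to 207 and 117 to 133 CPM in the same order. The part of any of these cell types in the members' levels was not tested.

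The genes whose pattern was most like that of each member were taken by Pearson's r of log2 CPM over the 12 libraries. They came from 6945 genes with a mean of at least 10 CPM over these libraries. The libraries share groups and normalization, so this describes the pattern only. *Os9* (r = 0.99), *Bet1l* and *Ctsb* were most like *Alpl*, and *Slc8a3* (r = 0.99), *Bgn* and *Gpr180* most like *Smpd3*. *Pkd2* (r = 0.98), *Nynrin* and *Kctd11* were most like *Ank*, and *Ppp1r1b* (r = 0.97), *Slc44a2* and *Pygl* most like *Enpp1*. For *Phospho1* the highest r was 0.93, with *Rhobtb1*, ahead of *Boc* and *Myh9*. *Lamp1* (r = 0.98), *Itfg1* and *Kcnk2* were most like *Slc20a2*, and *Togaram1* (r = 0.97), *Polr2m* and *Minpp1*, a phosphatase of inositol phosphates, most like *Slc20a1*. Among the members themselves over the 12 libraries, r was highest between *Alpl* and *Smpd3*, at 0.95, and *Slc20a1* was negative with each of the other 6, from -0.48 to -0.89. After the mean of each group was removed, r between members ran from -0.69 for *Phospho1* and *Slc20a1* to 0.53 for *Enpp1* and *Slc20a1*. *Alpl* and *Smpd3* had r = 0.52, and *Enpp1* and *Phospho1* had r = -0.67. In each *c-Myc* group, with 2 libraries, the deviations mirror each other, so the 12 values are not independent.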

How the data were processed

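Sorted mGFP+ metaphyseal cells of 12 libraries were measured by RNA-seq. Per the submitters' processing notes and the paper's methods, the authors used bcl2fastq 2.20 and cutadapt 4.6, aligned reads to mm10 with STAR 2.7.11a, and counted reads with a unique alignment by gene with HTSeq 2.0.5. They deposited raw counts, without normalization. The alignment and counting used different GENCODE releases, and exon overlaps were read from another, vM21. The counting mode and strand setting were not given in the sources used here.

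The counts were analysed in R 4.3.3 with edgeR 4.0.16 (TMM, default low-count filter, robust quasi-likelihood fit, two-sided F test, Benjamini-Hochberg adjustment over all genes tested, threshold 0.05). The age fit held 8 libraries, the fit of *c-Myc* groups against juvenile 8, and the fit against adult 12. The SE is approximate, the size of the log2 fold change over the square root of F, and 95% intervals use a normal approximation. CPM used TMM factors over all 12 libraries. The replicates carry separate labels, and nothing says that the *c-Myc* libraries came from separate mice, so p-values measure the spread between libraries. Counts of every replicate pair within a group differed beyond sampling noise (chi-square per degree of freedom 5.45 to 136). Depth limits cover counting error only.

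The members, the gene lists, the tests and the naming rule were chosen with earlier results of these data known. All 7 members were named, with up to 2 called genes of highest increase and 2 of largest decrease per list and comparison whose mean was at least 5 CPM in a group, of which the text gives a part, and the 3 genes most like each member. Alternatives were RLE and upper-quartile normalization, library totals, TMM without *Col1a1*, *Col1a2* and *Gm26917*, other count filters, other libraries in the fit, a fold threshold, a replicate block from the title numbers, DESeq2 1.42.0, and leaving out 1 library at a time. In simulated data with a log2 fold change of 1, edgeR called 52.6% of 196 changed genes in the age design, 51% of 198 for *c-Myc* over juvenile and 40.5% of 190 for *c-Myc* over adult. Few genes were changed in these simulations, 198 of 12270 for *c-Myc* over juvenile, where 53.4% were called in the data. The rates therefore do not carry over directly to the *c-Myc* comparisons. *c-Myc* + *R172H* over *c-Myc* was not simulated.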

Additional observations from a re-analysis of the deposited data

Results flagged for a closer look

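Of the 22 groups of 4 libraries examined for a value far from the rest, 1 met Dixon's criterion at the 95% level, and chance flags about 1 in 20 groups. *Slc20a2* in juvenile replicate 4 was at 69.4 CPM, with the nearest juvenile library at 45.1 CPM, a gap of 0.850 of the range of the group. Without this library *Slc20a2* was called lower in juvenile than in adult libraries, with a log2 fold change of -0.77 (edgeR adjusted p = 0.0135), and the fall in the *c-Myc* groups over juvenile libraries stayed called.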

How the results depend on the processing

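RLE and upper-quartile factors, TMM without *Col1a1*, *Col1a2* and *Gm26917*, a minimum of 10 counts in every library and a fold threshold of 1 each left the number of members called within 1.5 times that reported in all 6 comparisons. With library totals, 2 members were called between the ages (*Slc20a1* and *Slc20a2*), 2 in *c-Myc* over juvenile and 2 in *c-Myc* + *R172H* over juvenile libraries. Between the ages, 1 was called with no filter and 2 with all 12 libraries in the fit, and leaving out each library gave 0 to 3, with 3 (*Phospho1* higher, *Enpp1* and *Slc20a1* lower) without adult replicate 2. Between the *c-Myc* groups, 1 was called with no filter, 1 with DESeq2 and 2 with only these groups in the fit. The title numbers did not pair the libraries: same-numbered libraries of different groups had correlations of their deviations from -0.052 to 0.066, and 0.14 between the *c-Myc* groups, where 2 libraries each make both values equal. A replicate block called 2 members between the *c-Myc* groups, *Smpd3* and *Slc20a2*, 0 between the ages and 7, 7, 6 and 6 in the other comparisons.

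Some signs turned. With library totals the log2 fold changes that turned were -0.13 for *Ank* and -0.20 for *Smpd3* between the ages, 0.011 for *Slc20a2* in *c-Myc* over juvenile, 0.040 for *Phospho1* and 0.26 for *Enpp1* in *c-Myc* + *R172H* over juvenile, 0.12 for *Alpl* and 0.044 for *Slc20a1* in *c-Myc* + *R172H* over *c-Myc*, and 0.39 for *Phospho1* in *c-Myc* + *R172H* over adult. Leaving out each library gave -0.054 to 0.087 for *Smpd3* between the ages, and -0.22 to 0.26 for *Ank* and -0.13 to 0.51 for *Enpp1* between the *c-Myc* groups. The cause was not tested, apart from the shift of all genes that library totals bring. With 2 libraries in each *c-Myc* group, the SE of the log2 fold change between them was 0.24 for both *Enpp1* and *Phospho1*, which limits what could be detected.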
